A study of Arabidopsis thaliana with 4 samples.

Results

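The genes described here are 10 Arabidopsis thaliana loci that build stomata or mark their guard cells, out of 34133 loci with a value in every library. They are SPCH (AT5G53210), MUTE (AT3G06120), FAMA (AT3G24140), EPF1 (AT2G20875), EPF2 (AT1G34245), EPFL9 (AT4G12970), TMM (AT1G80080), ERL1 (AT5G62230), SDD1 (AT1G04110) and MYB60 (AT1G08810). They were taken by name and matched by locus, a rule that uses no measured value. The set was chosen with earlier results of these data known. RNA came from the first leaf of plants kept for 14 days on Murashige and Skoog medium with 1% sucrose. There were 2 libraries of the hybrid labelled Col-0xAk-1, a cross of the reference accession Col-0 with an inbred accession, and 2 libraries of the inbred accession Ak-1. The labels disagree on the inbred line, which is Ak-1 in the titles, Aa-0 as genotype and Ak-0 in the design text. Col-0 itself was not analysed here, so a difference between the hybrid and Ak-1 cannot be told apart from a difference between the alleles of its parents.

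Stomata are pores in the leaf epidermis, each flanked by a pair of guard cells. A young epidermal cell enters the lineage through unequal divisions, becomes a guard mother cell, and divides a last time into guard cells. The basic helix-loop-helix factors SPCH, MUTE and FAMA act in that order. Secreted peptides and the receptors that bind them set how many cells enter and how far apart the pores lie. Genes of entry into the lineage are active in young leaves, and guard cell genes stay active after the divisions have ended.

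The deposited values are FPKM, that is fragments mapped to a gene scaled by its transcript length and by the size of the library, so levels can be compared between genes. FPKM summed to 741307 and 714890 in the hybrid libraries and to 717147 and 728396 in the Ak-1 libraries, and the number of fragments behind each value is unknown. The build used was TAIR10. Whether reads of Ak-1 alleles mapped to it as well as reads of Col-0 alleles was not tested. The hybrid libraries differed more from each other than the Ak-1 libraries did, with a median absolute gap over the tested loci of 0.23 between hybrid libraries and 0.14 between Ak-1 libraries on the log2(FPKM + 1) scale. No label says that replicates came from separate plants, so the p-values rest on a spread between libraries that may be technical. The 15905 loci averaging 1 FPKM or more were tested with limma on log2(FPKM + 1), hybrid minus Ak-1, and called at an adjusted p under 0.05. All adjusted p-values are Benjamini-Hochberg adjusted over these loci, unless another fit is named.

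None of the stomatal genes that could be tested was called. FAMA, EPF1, TMM and MYB60 and the mesophyll peptide gene EPFL9 were expressed at 2.41 to 29.4 FPKM in all 4 libraries. The early genes SPCH, MUTE and EPF2 stayed under 1 FPKM in all 4. So did the receptor gene ERL1, and the protease gene SDD1 was at 0.83 to 1.4 FPKM. Of the 10 genes, 6 passed the filter on low values, and by limma 0 of these 6 were called higher and 0 lower, while 1 of them, MYB60, had an unadjusted p under 0.05. Over all tested loci 1.62% were called higher in the hybrid and 2.51% lower, which is the background for the 0 calls among 6 genes.

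**Figure D1:**
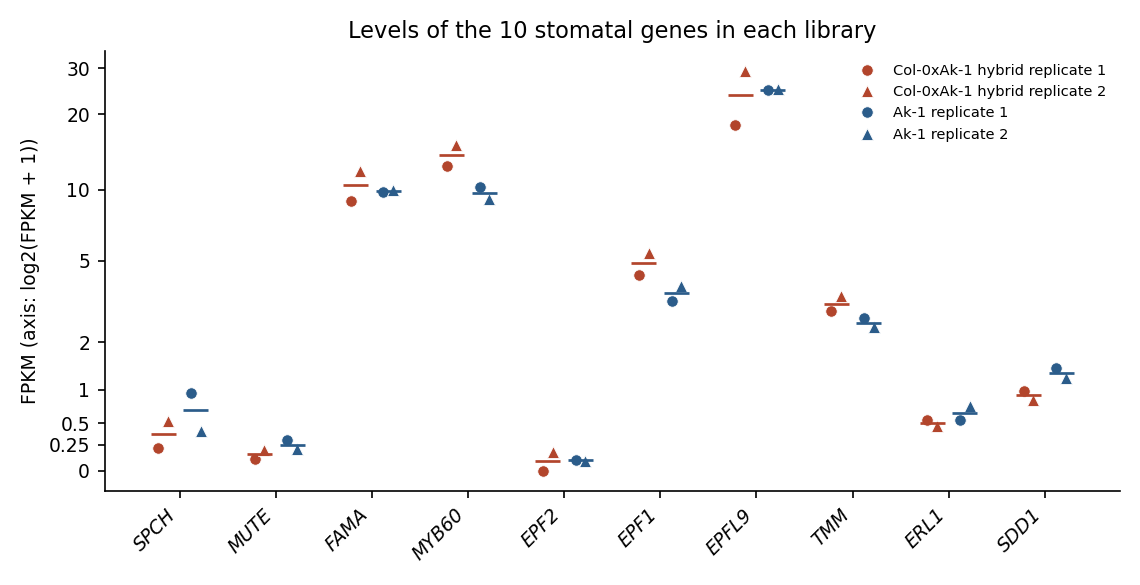
FPKM of the 10 genes in each library, on an axis spaced by log2(FPKM + 1). Circles and triangles are replicates 1 and 2, bars are group means, and the hybrid (red) stands left of Ak-1 (blue). SPCH, MUTE, EPF2 and ERL1 lie under 1 FPKM in all 4 libraries, and EPFL9 is the highest gene in each library.

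The 3 lineage transcription factors differed widely in level. SPCH, which starts the lineage, had 0.21 and 0.53 FPKM in the hybrid libraries, against 0.95 and 0.40 FPKM in the Ak-1 libraries. The groups overlapped, because the lower Ak-1 library lay under the higher hybrid library. MUTE, which turns a meristemoid into a guard mother cell, had 0.11 and 0.19 FPKM in the hybrid libraries, against 0.30 and 0.20 FPKM in the Ak-1 libraries. Both hybrid libraries were the lower ones, but the nearest pair was 0.19 against 0.20 FPKM, a gap as small as the rounding of the files. SPCH and MUTE were below the filter and so were not part of the main test. In a fit with no filter on low values their limma adjusted p-values were 0.596 for SPCH and 0.481 for MUTE. In whole leaves fewer lineage cells and less RNA per cell cannot be told apart.

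FAMA, which ends the lineage by driving guard cell identity, stood far above them. It had 9.03 and 11.9 FPKM in the hybrid libraries, against 9.83 and 9.94 FPKM in the Ak-1 libraries. The hybrid libraries lay on either side of the Ak-1 pair. The mean was 10.4 ± 2.0 FPKM in the hybrid and 9.89 ± 0.0778 FPKM in Ak-1 (SD, n = 2 each), a log2 difference of 0.06 (SE 0.17, 95% interval −0.37 to 0.49, limma adjusted p = 0.88). Its sign turned when hybrid replicate 2 was left out, with a log2 difference of −0.12.

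Among the peptides, EPF2 and EPF1 restrain the lineage and EPFL9 promotes it. EPF2, secreted by early lineage cells to limit entry, was listed at 0 and 0.17 FPKM in the hybrid libraries, against 0.10 and 0.09 FPKM in the Ak-1 libraries. The hybrid pair enclosed the Ak-1 pair, and EPF2 was the lowest of the 10 genes in all 4 libraries. EPF1, secreted by later cells of the lineage to keep pores apart, had 4.32 and 5.43 FPKM in the hybrid libraries, against 3.25 and 3.86 FPKM in the Ak-1 libraries. Both hybrid libraries were above both Ak-1 libraries, with a hybrid mean of 1.37 times the Ak-1 mean. The log2 difference was 0.36 (SE 0.17, 95% interval −0.07 to 0.80), and it was not called (limma adjusted p = 0.321).

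EPFL9, also named STOMAGEN, encodes a peptide made by the mesophyll that raises stomatal density. It had 18.2 and 29.4 FPKM in the hybrid libraries, against 24.76 and 24.98 FPKM in the Ak-1 libraries. The lowest and the highest value were both in the hybrid, so the groups overlapped. The log2 difference was −0.10 (SE 0.24, 95% interval −0.72 to 0.52, limma adjusted p = 0.863). It was −0.43 without hybrid replicate 2 and 0.23 without hybrid replicate 1. The gap between the hybrid libraries, 0.66 on the log2(FPKM + 1) scale, was the widest of the 10 genes, and the gap between the Ak-1 libraries was 0.01. That scale shrinks the gaps of low genes such as SPCH, with 0.21 and 0.53 FPKM in the hybrid libraries.

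TMM and ERL1 stand on the receptor side. TMM, a receptor-like protein without a kinase domain that lets the receptors tell the peptides apart, had 2.90 and 3.43 FPKM in the hybrid libraries, against 2.67 and 2.41 FPKM in the Ak-1 libraries. Both hybrid libraries were above both Ak-1 libraries. The log2 difference was 0.23 (SE 0.16, 95% interval −0.17 to 0.64, limma adjusted p = 0.485). ERL1, a receptor kinase of the ERECTA family that binds EPF1, had 0.54 and 0.47 FPKM in the hybrid libraries, against 0.54 and 0.74 FPKM in the Ak-1 libraries. The groups met at 0.54 FPKM, and ERL1 was below the filter (limma adjusted p = 0.61 with no filter). Its locus is overlapped at one end by AT5G62240, over 3.38% of the shorter locus, and the libraries do not keep strand. AT5G62240 had 1.05 and 0.86 FPKM in the hybrid libraries, against 1.9 and 1.66 FPKM in the Ak-1 libraries. Its part in the ERL1 values was not tested. None of the other 9 genes is overlapped by another annotated locus.

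SDD1, a subtilisin-type protease whose loss raises stomatal density, had 0.98 and 0.83 FPKM in the hybrid libraries, against 1.4 and 1.2 FPKM in the Ak-1 libraries. Both hybrid libraries were below both Ak-1 libraries. The mean was 0.905 ± 0.106 FPKM in the hybrid and 1.3 ± 0.141 FPKM in Ak-1 (SD, n = 2 each). The log2 difference was −0.27 (SE 0.18, 95% interval −0.73 to 0.19), and it was not called (limma adjusted p = 0.473).

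MYB60, a transcription factor gene of guard cells that promotes opening of the pore, showed the widest difference of the 6 tested genes on the log2(FPKM + 1) scale. It had 12.5 and 15.1 FPKM in the hybrid libraries, against 10.3 and 9.19 FPKM in the Ak-1 libraries. Both hybrid libraries were above both Ak-1 libraries, and the means were 13.8 ± 1.81 FPKM in the hybrid and 9.73 ± 0.764 FPKM in Ak-1 (SD, n = 2 each). The log2 difference was 0.46 (SE 0.16, 95% interval 0.07 to 0.86), with a limma p of 0.0299 before adjustment and an adjusted p of 0.193. It was 0.34 to 0.59 when any 1 library was left out, with adjusted p-values of at least 0.104. Over all tested loci 1211 were higher and 2002 lower at an unadjusted p under 0.05, or 20.2% of them. Adding 1 to FPKM shrinks the differences of low genes such as SDD1. With 0.1 added instead, the log2 difference was 0.497 for MYB60 and −0.479 for SDD1.

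**Figure D2:**
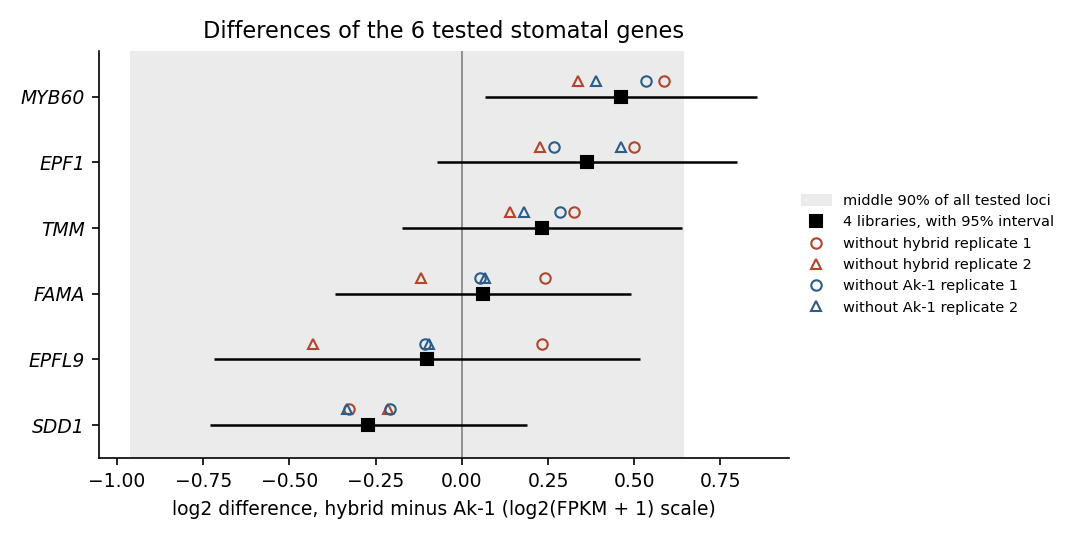
Log2 difference, hybrid minus Ak-1, of the 6 tested genes on the log2(FPKM + 1) scale. Squares with lines are the fit to all 4 libraries with its 95% interval, open symbols leave out 1 library, and grey spans the middle 90% of all tested loci. All 6 squares lie within the grey span, and the interval of MYB60 alone does not reach 0.

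Among the 6 tested genes, the hybrid libraries were both above the Ak-1 libraries for 3 (EPF1, TMM and MYB60) and both below for 1 (SDD1). Over all tested loci 20.5% had both hybrid libraries above and 32.6% had both below. The log2 difference had a median of 0.15 over the 6 genes, from −0.27 to 0.46, beside a median of −0.06 over all tested loci. The 4 genes below the filter had negative log2 differences in the fit with no filter on low values. These were −0.28 for SPCH, −0.12 for MUTE, −0.12 for ERL1 and −0.02 for EPF2, and none was called, so the positive median covers the tested genes only. The plot of differences with 1 library left out shows that FAMA and EPFL9 crossed 0, both through the choice of hybrid library. EPF1, TMM, SDD1 and MYB60 could not change sign there, because their groups did not overlap.

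The order of the levels was nearly the same in each library. EPFL9 was highest, above 71.5% to 79.6% of the tested loci, depending on the library. MYB60 and FAMA followed, and their ranges over the 4 libraries overlapped, with MYB60 above FAMA in 3 of 4 libraries. EPF1 came next and exceeded TMM in all 4 libraries, although their ranges over all libraries overlapped. SDD1 was below TMM with no overlap, at 1.93 times the mean of ERL1, which it also did not overlap. ERL1 and SPCH could not be ordered, each being the higher one in 2 of 4 libraries. MUTE was above EPF2 in all 4 libraries, with overlapping ranges.

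The hybrid libraries differed in 1 direction for most of the 10 genes. Hybrid replicate 2 was above hybrid replicate 1 for 8 genes, and below it for ERL1 and SDD1. Over all tested loci hybrid replicate 2 was the higher one for 55.9%, but SPCH, MUTE, EPF2 and ERL1 are not among those loci. Between the Ak-1 libraries, replicate 2 was above replicate 1 for 4 genes and below it for 6. Over all 15905 tested loci Ak-1 replicate 2 was above for 6556 and below for 9228.

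The pathway around these genes was followed through 54 further loci in lists of transcription factors, polarity proteins, peptides with their protease, receptors, kinases with a phosphatase, and division genes. Of these, 34 were tested, 1 was higher in the hybrid, 0 were lower by limma and 33 were not called, while 2 were higher and 4 lower at an unadjusted p under 0.05. Over all tested loci 1.62% were called higher and 2.51% lower, and 20.2% had an unadjusted limma p under 0.05. The median log2 difference of the 34 was −0.05. The one call was SERK2, a co-receptor kinase of the SERK family, members of which assist the ERECTA-family receptors in the lineage. SERK2 had 6.19 and 5.90 FPKM in the hybrid libraries, against 2.03 and 1.83 FPKM in the Ak-1 libraries. The groups were well apart, with a hybrid mean of 3.13 times the Ak-1 mean and a log2 difference of 1.27 (SE 0.14, limma adjusted p = 0.0165). The call was lost without Ak-1 replicate 1 (log2 difference 1.32, limma adjusted p = 0.164), without Ak-1 replicate 2 (1.22, adjusted p = 0.214) and with no filter on low values (adjusted p = 0.0551). SERK1, its close relative in sequence, had 0.87 and 0.94 FPKM in the hybrid libraries, against 1.05 and 0.85 FPKM in the Ak-1 libraries. How reads matching both were divided was not given in the sources used here. For SERK2 too, whether reads of Ak-1 alleles mapped as well as reads of the Col-0 allele was not tested.

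The helix-loop-helix partners of SPCH, MUTE and FAMA were far more abundant than SPCH or MUTE. ICE1, also named SCREAM, had 15.6 and 23.1 FPKM in the hybrid libraries, against 26.0 and 23.9 FPKM in the Ak-1 libraries. Its log2 difference was −0.38 (95% interval −0.92 to 0.17, limma adjusted p = 0.402), at −0.11 without hybrid replicate 1 and −0.64 without hybrid replicate 2. SCRM2, its close relative, had 13.2 and 10.7 FPKM in the hybrid libraries, against 15.0 and 13.6 FPKM in the Ak-1 libraries. For both genes the hybrid libraries were the lower ones, and SCRM2 was not called either (log2 difference −0.24, limma adjusted p = 0.459, and −0.38 to −0.11 on leaving out 1 library). None of the 13 tested transcription genes of 16 was called by limma (median log2 difference −0.095, with 0 higher and 1 lower at an unadjusted p under 0.05).

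Polarity genes act on the side of the cell away from the coming division. BASL, the first of them to be placed at the cell edge, had 0.04 and 0.09 FPKM in the hybrid libraries, against 0.33 and 0.19 FPKM in the Ak-1 libraries. POLAR, a partner of BASL, had 0.10 and 0.37 FPKM in the hybrid libraries, against 0.39 in each Ak-1 library. Both were under 1 FPKM in all 4 libraries and not part of the main test, and the hybrid was the lower group for both. Of 6 polarity genes, 3 were tested and none was called by limma (median −0.07), with 1 at an unadjusted p under 0.05. That was BRXL2, with 2.95 and 2.85 FPKM in the hybrid libraries, against 6.70 and 4.49 FPKM in the Ak-1 libraries (limma adjusted p = 0.139). It was chosen after its values were seen.

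Few of the EPF relatives were expressed. The peptide locus AT5G10310 had 1.74 and 2.07 FPKM in the hybrid libraries, against 1.96 and 3.49 FPKM in the Ak-1 libraries (limma adjusted p = 0.524). EPFL5 had 2.27 and 2.34 FPKM in the hybrid libraries, against 2.22 and 2.54 FPKM in the Ak-1 libraries. The groups overlapped for both. EPFL4 and the related loci AT3G13898 and AT1G80133 were listed at 0 in all 4 libraries. EPFL6, AT4G37810 and AT1G71866 had at most 0.21 FPKM in any library. ATSBT5.2, a secreted subtilisin-like protease known to cleave the EPF2 precursor, had 26.7 and 21.6 FPKM in the hybrid libraries, against 12.6 and 13.5 FPKM in the Ak-1 libraries. The groups did not overlap, and the log2 difference of 0.83 (SE 0.16) had a limma adjusted p of 0.062. Of the 11 loci of that list 4 were tested and none was called by limma (median 0.13), with ATSBT5.2 at an unadjusted p of 0.00303.

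ER, the best known receptor kinase of the ERECTA family, had 13.01 and 9.24 FPKM in the hybrid libraries, against 10.8 and 12.7 FPKM in the Ak-1 libraries (limma adjusted p = 0.857). ERL2, its relative, had 2.03 and 1.77 FPKM in the hybrid libraries, against 2.51 and 1.37 FPKM in the Ak-1 libraries (adjusted p = 0.992). ER was thus the most abundant of the 3 ERECTA-family genes and ERL1 the least in every library. BAK1, a further SERK co-receptor, had 7.32 and 7.84 FPKM in the hybrid libraries, against 10.4 and 11.7 FPKM in the Ak-1 libraries (log2 difference −0.49, limma adjusted p = 0.145). Apart from SERK2, the 5 tested receptors of 7 were not called, and the list median was 0.07. ER turned positive with quantile normalization, and ER and ERL2 each took both signs when 1 library was left out.

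Downstream of the receptors, YDA, the MAP kinase kinase kinase that restrains the lineage, had 9.91 and 10.4 FPKM in the hybrid libraries, against 11.1 and 11.2 FPKM in the Ak-1 libraries. Its interval was narrow, from −0.45 to 0.20 (limma adjusted p = 0.643). MPK3, a MAP kinase shared with immunity and stress signalling, had 26.2 and 41.9 FPKM in the hybrid libraries, against 55.2 and 82.2 FPKM in the Ak-1 libraries (log2 difference −1.002, limma adjusted p = 0.157). MKK9, a MAP kinase kinase with roles in ethylene and stress responses, had 6.96 and 41.8 FPKM in the hybrid libraries, against 41.8 and 51.6 FPKM in the Ak-1 libraries. Its low value was in hybrid replicate 1 alone, and MKK9 was not called (log2 difference −1.36, SE 0.77, limma adjusted p = 0.401). The log2 difference was −2.57 without hybrid replicate 2 and −0.15 without hybrid replicate 1. None of 6 tested kinase genes of 8 was called by limma (median −0.10, 1 lower at an unadjusted p under 0.05), nor were the 2 tested division genes of 6 (median −0.16, none at an unadjusted p under 0.05).

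**Figure D3:**
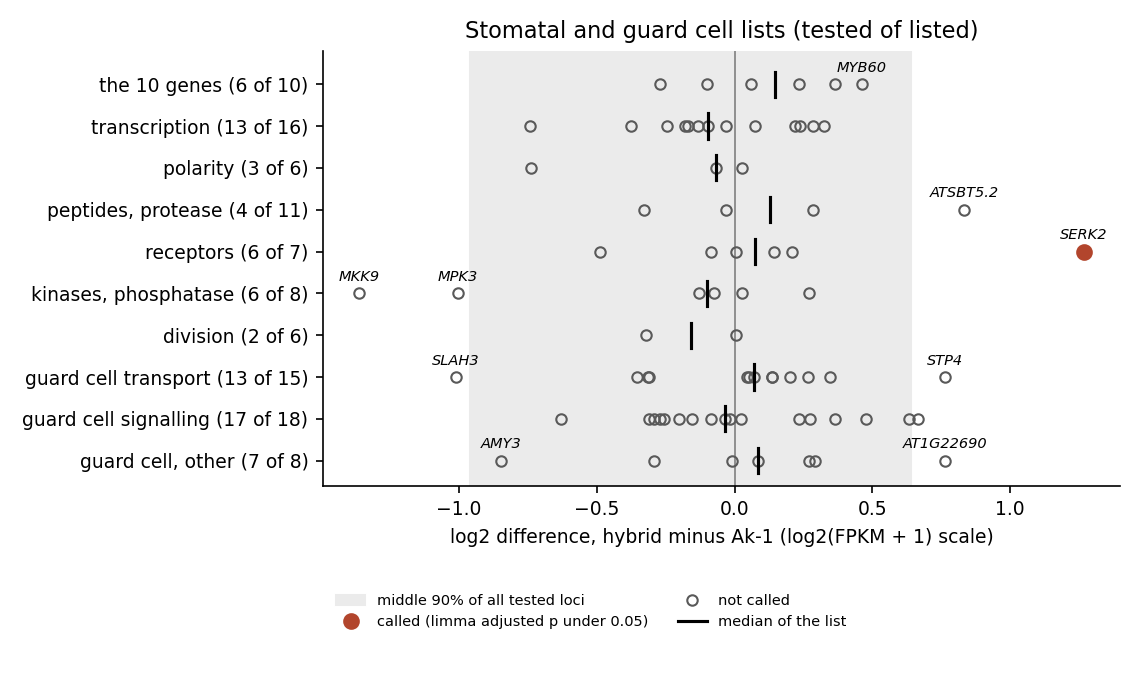
Log2 difference, hybrid minus Ak-1, of every tested gene of the 10 and of the pathway and guard cell lists, on the log2(FPKM + 1) scale. Each circle is a gene, black bars are list medians, grey spans the middle 90% of all tested loci, and row labels give tested of listed genes. SERK2 at 1.27 is the one called gene, and the medians lie between −0.16 and 0.15.

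Genes of the mature guard cell were also followed. Of 41 guard cell loci in lists of transport, signalling and other functions, 37 were tested, none was called higher and none lower by limma, and 5 were higher and 2 lower at an unadjusted p under 0.05. Over all tested loci these shares were 1.62% called higher, 2.51% called lower and 20.2% at an unadjusted limma p under 0.05. The median log2 difference was 0.05 over the 37, at 0.07 for 13 tested transport genes of 15, −0.03 for 17 tested signalling genes of 18 and 0.09 for 7 tested others of 8. The potassium uptake channel gene KAT1 had 6.60 and 6.81 FPKM in the hybrid libraries, against 8.34 and 8.82 FPKM in the Ak-1 libraries. KAT2, a channel gene of the same kind, had 3.25 and 3.82 FPKM in the hybrid libraries, against 2.41 and 2.71 FPKM in the Ak-1 libraries. The groups were apart for both genes but in opposite directions, and neither was called (limma adjusted p = 0.268 for KAT1 and 0.308 for KAT2).

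The anion channels of pore closure gave a similar range. SLAC1, the slow anion channel of guard cells, had 4.31 and 2.97 FPKM in the hybrid libraries, against 3.20 and 3.71 FPKM in the Ak-1 libraries (limma adjusted p = 0.925), and its sign changed with the library left out. ALMT12, the rapid anion channel, had 7.33 and 6.70 FPKM in the hybrid libraries, against 8.66 and 9.23 FPKM in the Ak-1 libraries (adjusted p = 0.285). SLAH3, a SLAC1 relative, had 9.57 and 4.97 FPKM in the hybrid libraries, against 16.0 and 14.1 FPKM in the Ak-1 libraries. Its log2 difference of −1.01 was the largest of the guard cell genes and was not called (SE 0.29, limma adjusted p = 0.146). It was −1.42 without hybrid replicate 1 and −0.60 without hybrid replicate 2.

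The starch-degrading alpha-amylase gene AMY3 had 19.8 and 7.29 FPKM in the hybrid libraries, against 23.8 and 21.4 FPKM in the Ak-1 libraries (log2 difference −0.85, limma adjusted p = 0.358). Here too the low value was in 1 hybrid library, replicate 2. The log2 difference was −1.51 without hybrid replicate 1 and −0.18 without hybrid replicate 2. The sugar transporter gene STP4 had 12.3 and 21.1 FPKM in the hybrid libraries, against 8.36 and 9.86 FPKM in the Ak-1 libraries (log2 difference 0.76, limma adjusted p = 0.208). Its log2 difference was 1.13 without hybrid replicate 1 and 0.398 without hybrid replicate 2. AT1G22690, a gibberellin-regulated family gene, had 220 and 230 FPKM in the hybrid libraries, against 109 and 160 FPKM in the Ak-1 libraries (log2 difference 0.76, adjusted p = 0.144).

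Signalling genes of stomatal movement were chosen for this paragraph after their values were seen. OST1, the kinase that relays abscisic acid to pore closure, had 20.7 and 20.4 FPKM in the hybrid libraries, against 24.9 and 21.2 FPKM in the Ak-1 libraries (limma adjusted p = 0.618). BLUS1, a kinase of blue light opening, had 13.7 and 16.5 FPKM in the hybrid libraries, against 8.68 and 9.54 FPKM in the Ak-1 libraries (log2 difference 0.67, adjusted p = 0.0971). MPK12, a MAP kinase of guard cells, had 25.3 and 29.2 FPKM in the hybrid libraries, against 15.8 and 18.7 FPKM in the Ak-1 libraries (log2 difference 0.63, adjusted p = 0.114). The calcium-dependent kinase gene CPK6, which acts in closure, had 4.24 and 4.01 FPKM in the hybrid libraries, against 7.03 and 6.81 FPKM in the Ak-1 libraries (log2 difference −0.63, adjusted p = 0.080). In BLUS1, MPK12 and CPK6 the groups did not overlap, and none passed the adjustment over all loci. Over all tested loci 20.5% had both hybrid libraries above both Ak-1 libraries and 32.6% had both below.

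**Figure D4:**
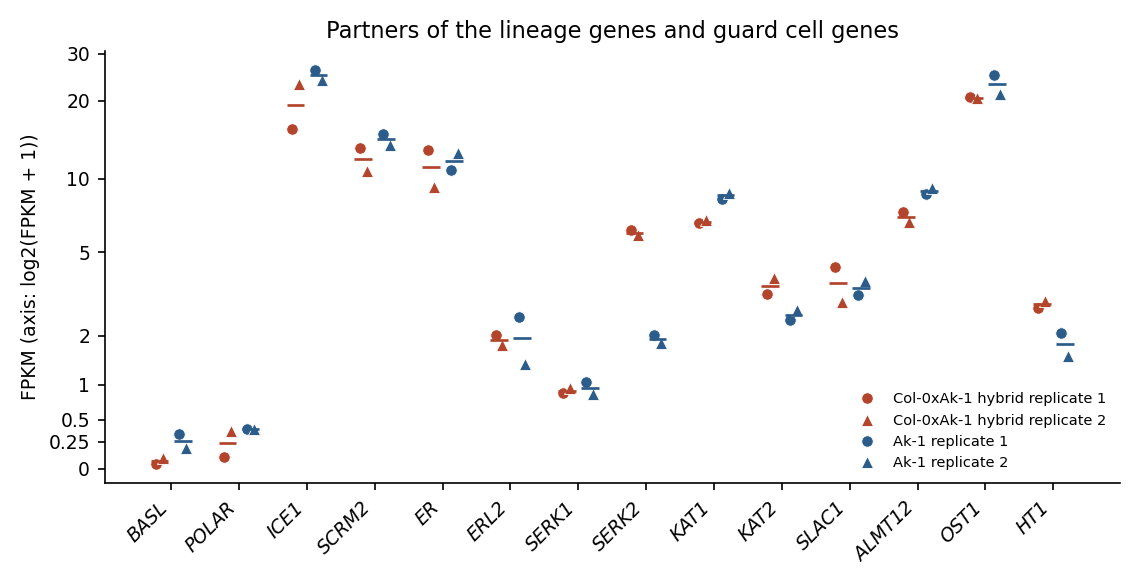
FPKM of pathway partners and guard cell genes in each library, on an axis spaced by log2(FPKM + 1). Symbols and colours mark the hybrid (red, left) and Ak-1 (blue, right) with replicates 1 and 2 as circles and triangles, and bars are group means. BASL and POLAR lie under 1 FPKM, ICE1 and OST1 near 20 FPKM, and SERK2 shows the widest gap between groups, at 6.19 and 5.90 FPKM in the hybrid against 2.03 and 1.83 FPKM in Ak-1.

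For each tested gene, the nearest patterns were sought among 77 tested genes of all these lists, as the Euclidean distance between log2(FPKM + 1) values centred over the 4 libraries. Such a search always finds a nearest gene, and loci outside the lists were not searched, so the pairs are a description only. TMM was nearest to HSL1, a receptor kinase gene, at 0.03. MYB60 was nearest to HT1, a kinase gene of the carbon dioxide response of guard cells, at 0.15, and to the MYB gene MYB88 at 0.19. HT1 had 2.78 and 3.0 FPKM in the hybrid libraries, against 2.07 and 1.54 FPKM in the Ak-1 libraries. EPF1 was nearest to KAT2 at 0.08 and to the blue light receptor gene PHOT2 at 0.14. FAMA was nearest to TCX2 at 0.05 and CPK23 at 0.06, EPFL9 to AT4G22790 at 0.11 and BIN2 at 0.21, and SDD1 to CPK3 at 0.07 and SCRM2 at 0.12.

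Markers of other cells were measured beside these genes. The 4 vascular markers all had positive log2 differences, summing to 419 and 447 FPKM in the hybrid libraries and to 307 and 340 FPKM in the Ak-1 libraries. SWEET11, a sucrose exporter of the phloem, led them with 190 and 218 FPKM in the hybrid libraries, against 137 and 144 FPKM in the Ak-1 libraries (limma adjusted p = 0.142). The 3 epidermal markers all had negative ones, summing to 92.4 and 107 FPKM in the hybrid libraries and to 116 and 117 FPKM in the Ak-1 libraries. Among these, PDF1 had 2.20 and 3.79 FPKM in the hybrid libraries, against 5.58 and 6.02 FPKM in the Ak-1 libraries (adjusted p = 0.145). Most of the epidermal sum was the marker FDH, with 77.6 and 91.0 FPKM in the hybrid libraries, against 97.2 and 96.8 FPKM in the Ak-1 libraries. The vascular sum was thus higher in the hybrid and the epidermal sum lower. Of the tested stomatal genes, EPF1, TMM and MYB60 were higher in both hybrid libraries, SDD1 was lower, and FAMA and EPFL9 overlapped. The part of vascular and epidermal cells in the values of these genes was not tested.

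The 8 markers of dividing cells summed to 7.46 and 10.5 FPKM in the hybrid libraries and to 8.05 and 10.3 FPKM in the Ak-1 libraries, so the groups overlapped. AUR2, an Aurora kinase gene, was the furthest apart of the 4 that were tested (log2 difference 0.63, limma adjusted p = 0.307), at 0.29 to 0.97 on leaving out 1 library. CYCB1;1, a mitotic cyclin gene below the filter, had the hybrid lower, with 0.17 and 0.26 FPKM in the hybrid libraries, against 0.73 and 0.51 FPKM in the Ak-1 libraries. The mesophyll and trichome sums were also higher in both hybrid libraries. The 5 mesophyll markers summed to 40935 and 36880 FPKM in the hybrid libraries and to 33137 and 34322 FPKM in the Ak-1 libraries, with RBCS2B at a log2 difference of 0.58 (adjusted p = 0.169). Their signs differed, since RBCS1B was at −0.50 (adjusted p = 0.247) and CAB3 at −0.35 (adjusted p = 0.489). The 7 trichome genes summed to 51.9 and 55.7 FPKM in the hybrid libraries and to 37.6 and 50.6 FPKM in the Ak-1 libraries. GL3 was listed at 0 in all 4 libraries and GL1 in all but Ak-1 replicate 2. TRY, a trichome patterning gene that is the annotated neighbour of SPCH, had 13.3 and 18.5 FPKM in the hybrid libraries, against 5.99 and 9.65 FPKM in the Ak-1 libraries (adjusted p = 0.141). The 4 shoot apex markers summed to at most 0.15 FPKM in any library, with CLV3 and WUS listed at 0 in all 4. By limma none of the 18 tested markers passed the adjusted threshold, while an unadjusted p under 0.05 was reached by 5 that were higher and 2 that were lower, beside 20.2% of all tested loci.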

How the data were processed

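Per the labels' protocols, TruSeq RNA V2 libraries, which do not mark strand, were made from leaf total RNA. The authors deposited 1 FPKM value per locus and library, rounded to 2 decimals. Per the submitters' processing notes, TopHat2 2.0.8b, TopHat, Cufflinks 2.0.2 and edgeR 3.12.0 were used with build TAIR10, and which tool did which step was not given in the sources used here. RefSeq annotation of build TAIR10.1 served only for names, neighbours and overlaps, so no coordinates or sequences are given.

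FPKM were used as deposited. A linear model with no covariate and moderated variances with a trend on the mean (limma 3.58.1, R 4.3.3, two-sided) was fitted to log2(FPKM + 1) of the 15905 loci averaging 1 FPKM or more, with 2 residual and 3.18 prior degrees of freedom. Fold changes on that scale understate the change of low genes. An exact permutation test of 2 against 2 libraries cannot go below p = 0.333 and was not used. The fit was checked on simulated data with the same spread in both groups, which leaves out the wider gaps between the hybrid libraries. Samples were grouped by their titles.

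The 10 genes, the lists and the tests were chosen with earlier results of these data known. Named are all 10 genes, ICE1, SCRM2, BASL, POLAR, ER, ERL2, YDA and the EPF relatives, every called list gene, the 4 largest differences of the pathway and of the guard cell lists, the largest of each marker list, and the 2 nearest patterns of each tested gene, of which 1 is not reported here. SERK1, KAT1, SLAC1, ALMT12, BAK1 and all others outside that rule were chosen after their values were seen.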

Additional observations from a re-analysis of the deposited data

How the results depend on the processing

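Other pseudocounts (0.1 and 0.5), filters, scalings, a fit with no variance trend, the replicate block, a crossed replicate block and leaving out each library gave 81 further values for the 6 tested stomatal genes. None of them was called, and 79 kept their sign. For EPF1, TMM, SDD1 and MYB60, whose groups did not overlap, leaving out 1 library could not turn it. The exceptions were FAMA (−0.12 to 0.24 on leaving out 1 library) and EPFL9 (−0.43 to 0.23). Of the other named genes, the sign turned for EPFL5 (0.014 with median-of-ratios scaling, 0.066 with quantile normalization, −0.099 to 0.038 on leaving out 1 library), ER (0.0069 with quantile normalization, −0.31 to 0.14), AT4G22790 (0.017 with median-of-ratios scaling, 0.022 with quantile normalization, −0.308 to 0.275), ERL2 (−0.28 to 0.29), TCX2 (−0.079 to 0.22), CPK23 (−0.153 to 0.202), BIN2 (−0.25 to 0.12) and SLAC1 (−0.16 to 0.26), the last 5 on leaving out 1 library. WRKY23 was at −1.07 without hybrid replicate 1, beside −0.74 with all 4 libraries. The cause of these changes was not tested.

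The counts over all loci moved more. Called higher were 257 loci, but 92 at a mean of 5 FPKM or more, 560 without hybrid replicate 1, and 4 or 3 without Ak-1 replicate 1 or 2. Called lower were 400, but 173 with no filter, 206 at a mean of 5 FPKM or more, 1 without either Ak-1 library and 751 without hybrid replicate 1. Pathway genes called higher were 1, but 0 with no filter, 0 at a mean of 5 FPKM or more (which leaves SERK2 out) and 0 without either Ak-1 library (range 0 to 1 on leaving out 1 library). Pathway genes called lower were 0 to 1 (WRKY23 without hybrid replicate 1, MKK9 without hybrid replicate 2), guard cell genes called higher 0 to 1 (STP4) and guard cell genes called lower 0 to 2 (SLAH3, AMY3), both without hybrid replicate 1. The low counts arose without Ak-1 replicate 1 or 2, when the hybrid pair alone gives the spread. Without a hybrid library the closer Ak-1 pair alone gives it, and the calls gained there rest on that pair. In either case the lone library is assumed to vary like the other group.

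The replicate numbers share only a number, since no label ties them to a batch. With the replicate block 200 loci were higher and 365 lower, and no call on a stomatal gene was gained or lost. Deviations of same-numbered libraries had r = −0.138 across loci, and with the numbers crossed, a pairing added after seeing the data, 262 were higher and 439 lower. Depth is unknown, so no counting error could be given for genes under 1 FPKM such as SPCH, MUTE and EPF2.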

Other observations

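Of the 20 pathway genes below the filter, 6 had both hybrid libraries below both Ak-1 libraries and 1 had both above. Over the tested loci, which lie above the filter, 32.6% had both below and 20.5% had both above. The shares of loci apart in this way, or at an unadjusted p under 0.05, were not taken over all loci below the filter. In the fit with no filter on low values, limma called 0 of the 20, and 4 were lower and 0 higher at an unadjusted p under 0.05. These 4 were BASL, the peptide locus AT4G37810, PP2C5 and SMR4, and they were chosen after their values were seen. PP2C5, a protein phosphatase that acts on MAP kinases, had 0.21 and 0.24 FPKM in the hybrid libraries, against 0.89 and 1.0 FPKM in the Ak-1 libraries (limma adjusted p = 0.0512 with no filter). SMR4, a gene of the SIAMESE-related family of cell cycle inhibitors, was listed at 0 in both hybrid libraries, against 0.28 and 0.25 FPKM in the Ak-1 libraries (limma adjusted p = 0.0562 with no filter). AT4G37810 was listed at 0 in both hybrid libraries, against 0.21 and 0.19 FPKM in the Ak-1 libraries (limma adjusted p = 0.0751 with no filter). For BASL that adjusted p was 0.229.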
